A study of Rattus norvegicus with 39 samples.

Results

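Neurons release transmitter when a vesicle fuses with the presynaptic membrane. The vesicle protein synaptobrevin (Vamp) and the membrane proteins syntaxin (Stx) and Snap25 zip together as the SNARE complex, synaptotagmins sense calcium and complexins hold the complex ready, and Nsf with its adaptor alpha-Snap (Napa) takes spent complexes apart. Rab3 and Rims proteins bring vesicles to the release site, while synapsins, synaptophysin (Syp) and Sv2 proteins sit on the vesicle itself. In the hippocampus, a target of the adrenal steroid corticosterone (CORT), CA1 pyramidal cells and local interneurons both use this machinery.

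The 74 probe sets described here measure genes of that machinery on an Affymetrix rat array with 8799 probe sets. They were taken by gene name: every probe set with a single gene symbol beginning with Syt, Stx, Snap, Vamp, Rab3, Cplx, Sv2 or Rims, together with Napa, Syn1, Syn2, Syn3, Syp and Nsf. They stand for 51 genes, of 4736 with a probe set of 1 symbol. The name rule also took in Rab33b, Rab34, Rab38 and Rab3ip, which are not Rab3 proteins of the vesicle, and Snap91, a clathrin assembly protein of vesicle recycling. Of the 74, 58 probe sets for 41 genes had a mean signal in the upper 70% of the array (a log2 value of at least 6.28) and were tested among 6118 such probe sets. The other 16 are the only probe sets of Stx3, Snap29, Stxbp2, Rab3ip and of the synaptotagmins Syt2, Syt6, Syt7, Syt9, Syt10 and Syt12, and a further probe set each of Rab33b, Rab34, Rab38, Snap23, Stx5 and Vamp5.

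RNA came from the CA1 region of 39 male Fischer 344 rats killed at 18 months, 1 array per rat. The LowCORT-injected group (n = 10) was adrenalectomized, carried a 25 mg CORT pellet for 3 months and was injected with 5 mg CORT per day on the last 4 days. The IntermediateCORT group (n = 9) was adrenalectomized and carried a 200 mg CORT pellet, the LowCORT group (n = 10) was adrenalectomized and carried a 25 mg CORT pellet, and the Sham group (n = 10) kept its adrenal glands and carried an inert pellet. Before the pellets, adrenalectomized animals had been given supplements that included CORT injections, so no adrenalectomized group was without hormone. Animals with the 25 mg pellet went on drinking saline with sucrose through the pellet period, so fluid and hormone dose cannot be told apart in comparisons between them and the other groups. Differences in RNA from a block of tissue do not separate fewer cells of a type from less RNA per cell.

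Signals are log2 values as the authors deposited them. The array carries control probe sets at the 3' and 5' ends of Gapdh and beta-actin, and the 3' minus 5' difference grows where labelled RNA covers less of the 5' end. The Gapdh difference was 1.03 ± 0.60 in the LowCORT-injected group, 0.63 ± 0.21 in IntermediateCORT, 0.81 ± 0.24 in LowCORT and 0.70 ± 0.22 in Sham (SD). The beta-actin difference was 0.79 ± 0.69 in the LowCORT-injected group, 0.65 ± 0.36 in IntermediateCORT, 0.93 ± 0.40 in LowCORT and 0.68 ± 0.41 in Sham (SD). Both therefore varied more among injected animals than in any other group. The beta-actin difference was highest in Sham subject 10 (1.52), IntermediateCORT subject 19 (1.45), LowCORT subject 28 (1.68) and LowCORT-injected subject 39 (2.13). These are the last or nearly the last subject numbers of their groups. Whether subject numbers follow the order of processing is not stated. Over the 39 arrays the 2 differences had a Pearson r of 0.37 (two-sided permutation p = 0.0243) and a Spearman rho of 0.55 (permutation p = 3.3e-04), and an r of 0.72 once the 2 arrays with the most extreme Gapdh differences were left out.

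The relation was not alike in all arrays, since 3 stood apart with a high Gapdh and a low beta-actin difference. They were injected subject 35 (Gapdh 2.41, beta-actin 0.04), injected subject 34 (1.04 and 0.17) and Sham subject 6 (0.96 and 0.10). Their Gapdh difference exceeded their beta-actin difference by at least 0.86, while the next largest excess was 0.27. In the other 36 arrays the 2 differences had an r of 0.93 and a rho of 0.86. Values that rest on these 3 arrays are given below with and without them, an alternative chosen after the data were seen.

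**Figure D1:**
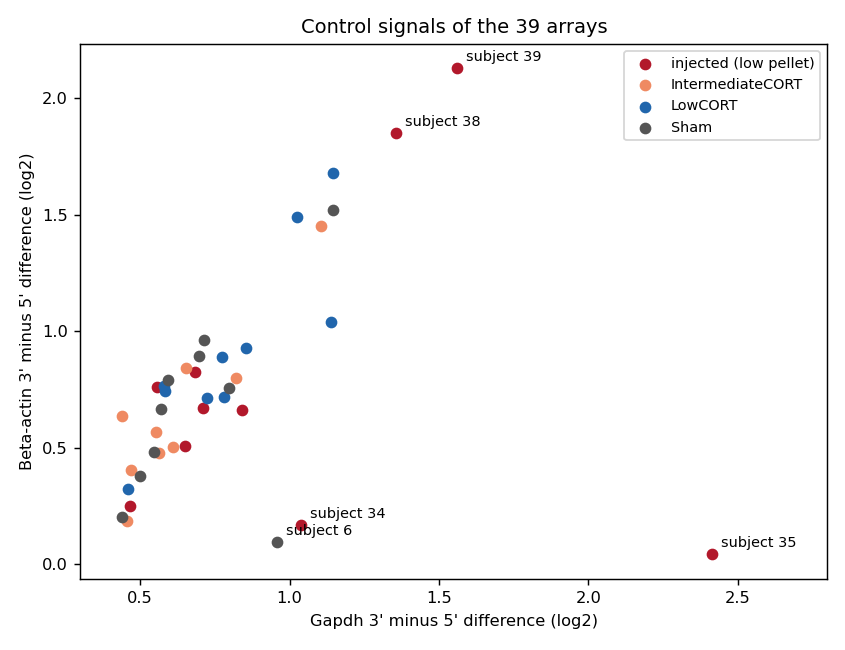
Each point is 1 array, placed by its Gapdh 3' minus 5' difference (horizontal axis, log2) and its beta-actin 3' minus 5' difference (vertical axis, log2), coloured by group. Subjects 35, 34 and 6 lie to the lower right of a band formed by the other 36 arrays, whose upper end holds injected subjects 38 and 39.

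The main question of the design, whether long-term low or intermediate CORT, or a short high dose, moved these genes in aged CA1, was tested with limma over all 6118 probe sets, with p-values adjusted across them by Benjamini-Hochberg at a threshold of 0.05. Vamp3, which encodes cellubrevin, a synaptobrevin relative found in many cell types and on recycling endosomes, was the single member to pass in any of the 6 group comparisons. It rose in LowCORT against Sham and was lower in IntermediateCORT than in LowCORT. No synaptic SNARE, synaptotagmin, synapsin or Sv2 probe set passed in any comparison.

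Vamp3 read 9.43 at the lowest, 9.67 at the median and 9.76 at the highest in LowCORT animals, against 9.19, 9.42 and 9.57 in Sham animals. In the LowCORT-injected group it spanned 9.21 to 9.60 with a median of 9.46, and in IntermediateCORT 9.29 to 9.48 with a median of 9.39. The groups overlapped, but 10 of 10 LowCORT animals lay above the Sham mean. The difference, LowCORT minus Sham, was 0.22 (SE 0.05, 1.16-fold higher), with an adjusted p of 0.0213, where 1.05% of all tested probe sets rose. IntermediateCORT minus LowCORT was -0.22 (SE 0.06), with an adjusted p of 0.0222, and 9 of 9 IntermediateCORT animals lay below the LowCORT mean; 1.5% of all tested probe sets fell in that comparison. These 2 comparisons share the LowCORT arrays, so the second does not stand on independent animals. LowCORT-injected minus LowCORT was -0.18 (SE 0.05) with an adjusted p of 0.221.

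The Vamp3 probe set had slopes of -0.07 (adjusted p = 0.433) on the Gapdh difference and 0.07 (adjusted p = 0.240) on the beta-actin difference. With both differences in the fit its changes were 0.21 (adjusted p = 0.0230) in LowCORT against Sham and -0.21 (adjusted p = 0.0242) in IntermediateCORT against LowCORT. Without the 3 arrays that stood apart, they were 0.20 (adjusted p = 0.0318) and -0.22 (adjusted p = 0.00975). With both differences fitted in those 36 arrays, Vamp3 did have a called Gapdh slope, -0.53 (SE 0.18, adjusted p = 0.0231), and a called beta-actin slope of the other sign, 0.31 (adjusted p = 0.0199). The LowCORT against Sham difference kept its size but missed the threshold in 3 fits that left out 1 animal: it was 0.20 (adjusted p = 0.0591) without Sham subject 1, 0.20 (adjusted p = 0.0525) without Sham subject 5 and 0.21 (adjusted p = 0.0503) without LowCORT subject 28. IntermediateCORT minus LowCORT was -0.21 (adjusted p = 0.0501) without IntermediateCORT subject 15.

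Some markers of other cells also differed in these comparisons. Of 5 tested endothelial markers, Slco1a4, a transporter of brain capillaries, rose in LowCORT against Sham by 0.56 (adjusted p = 4.21e-04) and fell in IntermediateCORT against LowCORT by 0.59 (adjusted p = 3.52e-04), and the other 4 did not pass in either. Of the 5, 3 had differences above 0 in LowCORT against Sham (median 0.03), and 4 were below 0 in IntermediateCORT against LowCORT (median -0.11). Mean levels of the endothelial list, which holds Slco1a4, ran from 8.66 to 8.92 in LowCORT, against 8.56 to 8.75 in Sham. Of 7 tested oligodendrocyte markers, the myelin enzyme Cnp fell in IntermediateCORT against LowCORT by 0.28 (adjusted p = 0.0137), but 3 of the 7 had differences above 0, up to 0.30 for the myelin protein Mal (adjusted p = 0.303), and the list's median was -0.01. With both control differences in the fit, Mal rose by 0.39 (adjusted p = 0.0111). Of 6 microglial markers, Cd53, a leukocyte membrane protein, had a difference of 0.21 in LowCORT against Sham (adjusted p = 0.0626) and fell by 0.25 in IntermediateCORT against LowCORT (adjusted p = 0.0229). Of the 6, 3 had differences above 0 in LowCORT against Sham (median 0.01), and 4 were below 0 in IntermediateCORT against LowCORT (median -0.07). The microglial mean ran from 8.05 to 8.16 in LowCORT, against 8.00 to 8.10 in Sham. The part of these cells in the Vamp3 difference was not tested.

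Read against the array as a whole, the members were called at about the background rate. In LowCORT against Sham, 1 of 58 members was called and 1.68% of all tested probe sets were. In IntermediateCORT against LowCORT, 1 of 58 was called, against 2.14% of all. None was called in LowCORT-injected against LowCORT (0.343% of all), LowCORT-injected against Sham (0.229% of all), IntermediateCORT against Sham (0.0163% of all) or LowCORT-injected against IntermediateCORT (0.196% of all). Unadjusted p-values under 0.05 in the limma fit were reached by 8 members (13.8%) in LowCORT-injected against Sham, where 5.95% of all probe sets reached them, and by 10 (17.2%) in LowCORT-injected against IntermediateCORT, where 11.4% of all did. They were reached by 10 (17.2%) in LowCORT against Sham, against 13.6% of all, and by 4 (6.9%) in IntermediateCORT against Sham, against 4.22% of all. In LowCORT-injected against LowCORT they were reached by 4 (6.9%), against 7.37% of all, and in IntermediateCORT against LowCORT by 7 (12.1%), against 11.9% of all. The share of members was thus above that of all probe sets in the first 4 of these comparisons and near it in the other two, and this difference in share was not tested. With both control differences in the fit, 2 members were called in LowCORT against Sham (2.86% of all), 1 in IntermediateCORT against LowCORT (2.96% of all) and 0 in the other 4. Of all probe sets, 0.441% were then called in LowCORT-injected against LowCORT, 0.36% in LowCORT-injected against Sham, 0.196% in IntermediateCORT against Sham and 0.311% in LowCORT-injected against IntermediateCORT. An F test over the 4 groups called Vamp3 (adjusted p = 0.0277) and no other member, while 2.27% of all probe sets passed. When 1 array at a time was left out, Vamp3 missed the F test threshold in 6 of 39 fits (adjusted p up to 0.0739). Each of these left out a LowCORT animal.

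Among the regulators of the SNARE complex, complexin 1 (Cplx1) lay nearest to Vamp3. Cplx1 ran from 8.98 to 9.87 with a median of 9.48 in LowCORT animals, against 9.71 to 10.13 with a median of 9.84 in Sham animals. In LowCORT-injected animals it ran from 8.80 to 10.36 with a median of 9.75, and in IntermediateCORT animals from 9.52 to 10.16 with a median of 9.68. Every LowCORT animal lay below the Sham mean, though the groups overlapped, and the injected group was spread most widely. LowCORT minus Sham was -0.45 (SE 0.13, 1.36-fold lower) with an adjusted p of 0.0771, above the threshold.

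The Cplx1 call differed between fits. Its slope on the Gapdh difference was -0.65 (SE 0.10, adjusted p = 3.43e-06). With both control differences in the fit, LowCORT minus Sham was -0.36 (SE 0.09) and Cplx1 fell with an adjusted p of 0.0158. Without the 3 arrays that stood apart the difference was -0.46 (adjusted p = 0.0403, with 2.45% of all probe sets called), and with the Gapdh difference fitted alone in the 36 others it was -0.35 (adjusted p = 0.0236). It was also called with no control signal in the fit, with array weights (-0.44, adjusted p = 0.0300) and with only LowCORT and Sham in the fit (-0.45, adjusted p = 0.0231). Cplx1 was not called without a signal filter, with a stricter filter or with quantile normalization. Nor was it called with the position in the group or the beta-actin difference alone as a covariate. When 1 array at a time was left out, it was called in 3 of 39 fits (adjusted p from 0.0434 to 0.155). Complexin 2 (Cplx2), its close relative, had a difference of 0.07 (SE 0.12) in the same comparison.

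Some interneuron markers differed in the same comparison as Cplx1. Of 8 tested, Gad1, the enzyme that makes GABA, fell by 0.31 (adjusted p = 0.00758) in LowCORT against Sham, and Calb2, the calcium-binding protein calretinin, fell by 0.23 (adjusted p = 0.0135). The vesicular GABA transporter Slc32a1 had a difference of -0.25 (adjusted p = 0.0854). Of the 8, 7 had differences below 0 and 1 had a difference of 0.19. With both control differences in the fit, 3 were called lower and 1 higher. The mean of the 9 listed interneuron markers ran from 8.90 to 9.19 in LowCORT, against 9.10 to 9.33 in Sham. Whether these cells contributed to the Cplx1 difference was not tested.

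The promoter of Cplx1 and that of Napa, the member with the smallest p in LowCORT-injected against IntermediateCORT, are printed from RefSeq (build GRCr8) from 250 bases before to 50 after the start that the RefSeq promoter table uses. Capitals mark the GC box GGGCGG on either strand and the cyclic AMP response element TGACGTCA, which do not overlap each other. For Napa the table's start lies inside the gene's annotated extent, which begins at position 85915088, so the whole window falls after the first annotated base of the gene. The Cplx1 sequence is chr14:1328823-1329122 and that of Napa chr1:85915185-85915484, both on the plus strand.
Cplx1: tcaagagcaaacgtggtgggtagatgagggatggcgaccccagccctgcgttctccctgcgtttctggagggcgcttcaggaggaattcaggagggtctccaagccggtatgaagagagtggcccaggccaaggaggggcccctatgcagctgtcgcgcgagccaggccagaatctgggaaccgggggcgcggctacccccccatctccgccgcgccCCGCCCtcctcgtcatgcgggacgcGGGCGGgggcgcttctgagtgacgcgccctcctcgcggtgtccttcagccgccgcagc
Napa: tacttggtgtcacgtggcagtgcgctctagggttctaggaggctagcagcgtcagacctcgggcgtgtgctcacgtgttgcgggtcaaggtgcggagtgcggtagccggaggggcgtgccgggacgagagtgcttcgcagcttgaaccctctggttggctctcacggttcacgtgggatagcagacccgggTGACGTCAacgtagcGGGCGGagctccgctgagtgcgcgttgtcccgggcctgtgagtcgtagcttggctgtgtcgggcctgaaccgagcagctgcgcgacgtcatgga

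Of the 51 member genes, 41 had a promoter in the RefSeq table. The GC box was found in 30 of the 41 (73.2%), against 33.1% of 33469 promoters of that length. The cyclic AMP element was found in 3 (Napa, Syn1 and Vamp1, 7.32%), against 1.83% of all. The palindromic glucocorticoid response element, searched on both strands, was found in 0 of 41 and in 0.439% of all. These are matches of letters in a short window and say nothing of binding.

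Napa encodes alpha-Snap, the adaptor that brings Nsf to the spent SNARE complex. One of its 2 probe sets (X89968_at) ran from 8.97 to 9.91 with a median of 9.44 in LowCORT-injected animals, against 9.39 to 10.07 with a median of 9.77 in IntermediateCORT animals. The difference was -0.38 (SE 0.10) with an adjusted p of 0.113, and -0.20 (adjusted p = 0.358) with the control differences in the fit. The second probe set had a difference of -0.17 (adjusted p = 0.257). Stx8, a syntaxin of endosomes, had the next smallest p-values in that comparison, -0.32 and -0.21 for its 2 probe sets, each with an adjusted p of 0.181. None of these passed, and Napa without the 3 arrays was at -0.29 (adjusted p = 0.356).

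**Figure D2:**
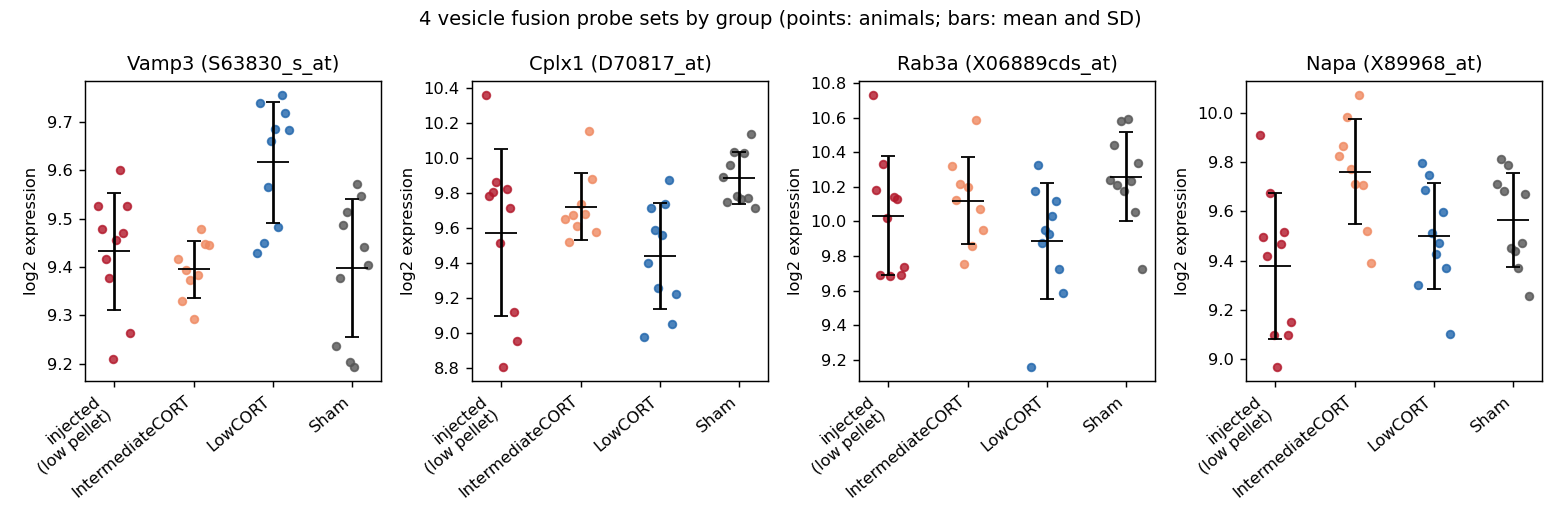
Log2 expression (vertical axis) of 1 probe set each of Vamp3, Cplx1, Rab3a and Napa in the 4 groups (horizontal axis). Points are animals, bars are the mean and SD; all groups overlap, with LowCORT highest for Vamp3 and lowest for Cplx1 by its mean.

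Nsf itself, the ATPase that recycles SNARE proteins, had 2 probe sets with wide spread inside every group. One (AF091834_at) ran from 6.25 to 9.49 with a median of 8.06 in LowCORT-injected animals and from 6.93 to 9.32 with a median of 8.39 in IntermediateCORT animals. It ran from 6.58 to 9.32 with a median of 7.87 in LowCORT animals, against 7.13 to 9.33 with a median of 8.31 in Sham animals. The groups thus overlapped almost completely. LowCORT minus Sham was -0.56 (SE 0.35) and -0.15 with the control differences in the fit.

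Rab3a, the GTPase that tethers vesicles through Rims, ran from 9.16 to 10.33 with a median of 9.94 in LowCORT animals, against 9.72 to 10.59 with a median of 10.23 in Sham animals. Its difference was -0.37 (SE 0.13, adjusted p = 0.143), and 9 of 10 LowCORT animals lay below the Sham mean. Both probe sets of its relative Rab3b had lower means than Sham in LowCORT (-0.22 and -0.28, adjusted p = 0.224 and 0.225) and in IntermediateCORT (-0.27 and -0.25, adjusted p = 0.776 and 0.998). Sham arrays are shared by these comparisons. Rims1, the active-zone scaffold, had a difference of -0.13 (SE 0.11) in LowCORT against Sham.

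Snap25, the membrane SNARE of synapses, was read by 4 probe sets. One of them (U56261_s_at) ran from 5.34 to 7.43 with a median of 5.98 in LowCORT-injected animals, from 5.83 to 6.76 in IntermediateCORT and from 5.60 to 7.19 with a median of 6.18 in LowCORT, against 5.73 to 7.78 with a median of 6.81 in Sham. All 4 probe sets had a lower mean in LowCORT-injected than in Sham animals, by 0.57, 0.57, 0.55 and 0.32 on the log2 scale, but the lowest adjusted p was 0.664. With the control differences in the fit, those 4 differences were -0.28, -0.23, -0.26 and -0.20. The 4 probe sets read the same gene in the same animals, so they are not separate observations. Where each lies in the transcript was not analysed. Their mean signals over all arrays were 11.92, 10.72, 8.09 and 6.38. The lowest was that of U56261_s_at, just above the signal filter of 6.28.

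No probe set of the other synaptic SNAREs passed either. Vamp1, a synaptobrevin most abundant in brainstem and spinal cord, had LowCORT minus Sham values of -0.32 and -0.16 for its 2 probe sets, with adjusted p = 0.266 for the second. Vamp2, the main synaptobrevin of the forebrain, had values of -0.01 and -0.09. Stx1a had an IntermediateCORT minus LowCORT difference of -0.21 (adjusted p = 0.297) in 1 of its 2 probe sets, and 0.02 and 0.07 in LowCORT against Sham.

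Among synaptotagmins, Syt1, the fast calcium sensor of release, ran from 6.53 to 9.27 with a median of 7.32 in LowCORT animals, against 6.88 to 9.13 with a median of 7.94 in Sham animals. Its difference of -0.46 (SE 0.32) was within that spread, and it was -0.14 with the control differences in the fit. Syt17, a synaptotagmin-like protein that lacks the membrane anchor, had differences of -0.14 in LowCORT-injected against LowCORT (adjusted p = 0.618) and -0.14 in IntermediateCORT against LowCORT (adjusted p = 0.387). Syt4, which is known as an activity-induced member, had a difference of -0.34 in LowCORT-injected against IntermediateCORT (adjusted p = 0.286) in 1 of its 2 probe sets.

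No probe set of the vesicle membrane proteins and synapsins passed. The widest group difference among all members was that of 1 Sv2b probe set (L10362_at), a vesicle glycoprotein, at -0.998 (SE 0.38, adjusted p = 0.286) in LowCORT-injected against IntermediateCORT, where the other Sv2b probe set had -0.20 (SE 0.07, adjusted p = 0.286). The first had 0.57 (adjusted p = 0.615) in IntermediateCORT against LowCORT and -0.64 (adjusted p = 0.885) in LowCORT-injected against Sham. With both control differences in the fit its 3 values were -0.26, 0.29 and -0.02, and without the 3 arrays that stood apart they were -0.51, 0.57 and -0.42. In LowCORT against Sham, Syp had a value of -0.04 (SE 0.16), Sv2a -0.02 (SE 0.10), Syn1, which ties vesicles to the cytoskeleton, -0.04 (SE 0.17), and the 3 Syn2 probe sets -0.17, -0.13 and 0.10. Rab34 and Rab38, members by name alone, were among the 3 smallest p-values in LowCORT-injected against Sham (0.19, adjusted p = 0.659) and IntermediateCORT against Sham (-0.14, adjusted p = 0.998). Neither passed.

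**Figure D3:**
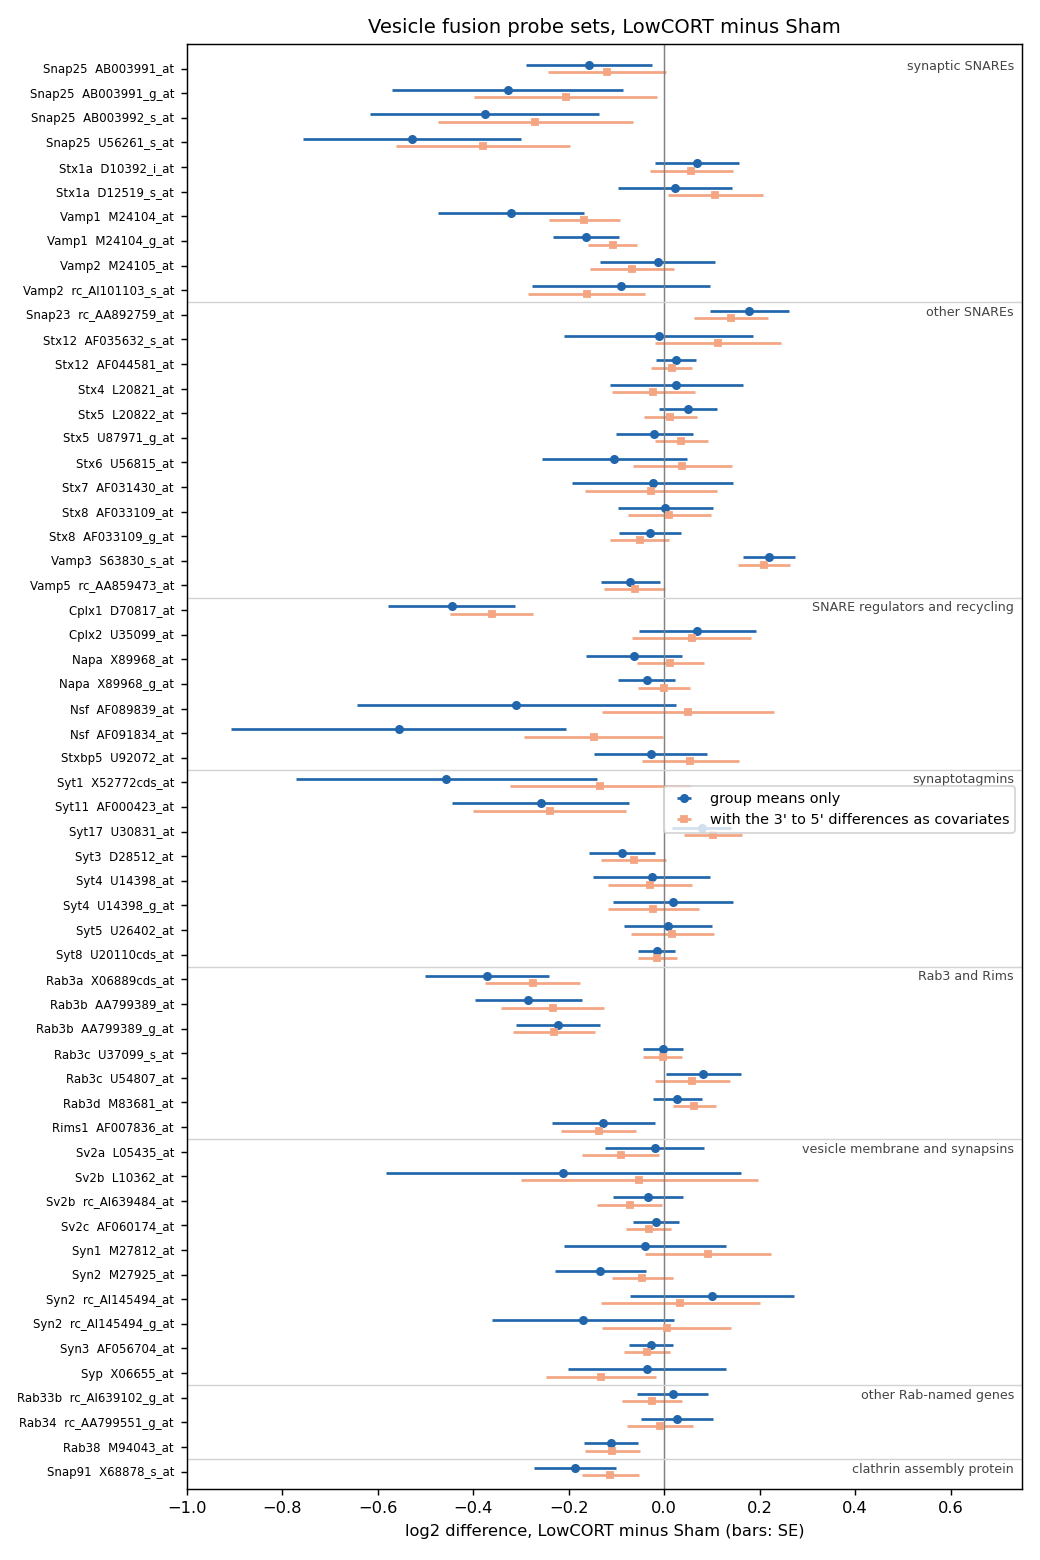
Log2 difference, LowCORT minus Sham (horizontal axis), of the 58 tested probe sets, grouped by role (vertical axis), from group means only (circles) and after both control differences were added to the fit (squares); bars are SE. Vamp3 lies at 0.22 and Cplx1 at -0.45, and the squares of Nsf, Syt1, Snap25 and Vamp1 lie nearer to 0 than their circles.

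As a group, the members leaned to one side in some comparisons, by little. The median difference over the 58 members was -0.04 in LowCORT-injected against LowCORT, 0.06 in IntermediateCORT against LowCORT and -0.03 in LowCORT against Sham. It was -0.10 in LowCORT-injected against Sham, -0.01 in IntermediateCORT against Sham and -0.09 in LowCORT-injected against IntermediateCORT. Differences below 0 were found for 46 of 58 members in LowCORT-injected against Sham (47.8% of all tested probe sets). In LowCORT-injected against IntermediateCORT they were found for 44 of 58 (43.2% of all). With the control differences in the fit the member counts were 39 and 25 of 58, with medians of -0.03 and 0.02. Without the 3 arrays that stood apart they were 45 and 36 of 58. In LowCORT against Sham, 41 of 58 members lay below 0 (52.9% of all), and 37 with the control differences in the fit. Without the 3 arrays 42 did, with a median of -0.08. Over all tested probe sets the medians lay within 0.02 of 0 in each of these fits.

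More members passed a test for the control signals than for the groups. With groups and both differences in one fit over 39 arrays, 26 of 58 members (44.8%) had a called slope on the Gapdh difference, all negative, against 24.7% of all tested probe sets (13.5% negative and 11.1% positive). On the beta-actin difference 26 members were called, 14 negative and 12 positive, against 35.9% of all (18.8% negative and 17.1% positive). Of the members called on both, 8 had opposite signs and 6 were negative on both. In all, 38 of 58 (28 genes) were called on at least 1 of the 2 differences, against 48.2% of all probe sets. These counts are of probe sets, and those of 1 gene read the same animals, so they are not separate observations.

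In that fit 8 of 10 synaptic SNARE probe sets fell with the Gapdh difference: all 4 of Snap25 and both each of Vamp1 and Vamp2. The 2 Stx1a probe sets were not called. Of the regulators, 4 of 7 were called (Cplx1, both Nsf probe sets and 1 of Napa), of the synaptotagmins 4 of 8, of the other SNAREs 5 of 12, and of the Rab3 and Rims group 2 of 7 (Rab3a and Rims1). Of the vesicle membrane proteins and synapsins 2 of 10 were called, 1 Sv2b probe set and Syp. The Snap25 and Vamp1 calls rested on injected subject 35, and without that array none of them remained. The Snap25 slopes were then -0.30, -0.92, -0.75 and -0.83 (adjusted p = 0.41, 0.094, 0.20 and 0.11). Those of Vamp1 were -0.17 and -0.13 (adjusted p = 0.36 and 0.38). Both Vamp2 probe sets were still called.

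The 3 arrays that stood apart read low in several members. In 10 of the 58 members (17.2%) all 3 read below every other array, against 5.56% of all tested probe sets, and in 0 of 58 did all 3 read above, against 5.08% of all. One Sv2b probe set (L10362_at) read 6.54 to 6.71 in the 3 arrays and 8.05 to 10.29 in the other 36. Syp read 10.01 to 10.28 in the 3 and 10.71 to 11.59 in the others, and the 2 Vamp2 probe sets read 10.44 to 10.65 and 9.44 to 9.59 in the 3, against 11.07 to 11.68 and 10.06 to 11.29 in the others. Stx7, both Syt4 probe sets, and 1 probe set each of Stx8, Stx12 and Rab33b made up the rest of the 10.

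Without the 3 arrays, the fit with both differences called 14 members on the Gapdh difference, 10 negative and 4 positive (24.1%), against 33.1% of all probe sets. The members' share was thus below that of all there, and above it over 39 arrays. Of the 14, 6 were among the 26 called over 39 arrays. Since the 2 differences run together in those 36 arrays, each was also fitted alone there. The Gapdh difference alone then had 27 called members (46.6%, 21 genes), 24 negative and 3 positive, against 28.7% of all probe sets (16.3% negative and 12.4% positive), and 17 of the 27 were among the 26 called over 39 arrays. The beta-actin difference alone had 31 called members (53.4%), 25 negative and 6 positive, against 40% of all. The 26 members called on both alone had the same sign on both.

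With the Gapdh difference fitted alone in those 36 arrays, Nsf and Syt1 had the steepest slopes. The slopes of the Nsf probe sets on the Gapdh difference alone were -2.85 (SE 0.24, adjusted p = 7.05e-12) and -2.56 (SE 0.28, adjusted p = 4.26e-09), and that of Syt1 was -2.27 (SE 0.30, adjusted p = 1.88e-07). In the fit with both differences over 39 arrays the steepest beta-actin slopes were those of Nsf, -1.37 (SE 0.12, adjusted p = 2.14e-11) and -1.11, and of Syt1, -0.97.

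Other members fell less steeply. With the Gapdh difference alone in the 36 arrays, the Gapdh slopes were -1.05 and -0.41 for Vamp1 and -1.26 for 1 Stx12 probe set. In that fit they were -1.09 for Stx6, -0.80 for Rab3a, -0.79 for Cplx1 and -0.60 for 1 Napa probe set. Of the 4 Snap25 probe sets 3 were called, at -1.11, -0.94 and -0.81. The 3 members with a called positive slope were Sv2a (0.31), 1 Stx5 probe set (0.28) and Rab34 (0.30).

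For some members the Gapdh slope differed widely between fits. One Vamp2 probe set (rc_AI101103_s_at) had -0.81 over 39 arrays and -1.82 (adjusted p = 1.15e-05) in the 36, both with the beta-actin difference in the fit, and -0.06 (adjusted p = 0.808) in the 36 with Gapdh alone. The other Vamp2 probe set (M24105_at) had -0.43, -0.03 (adjusted p = 0.929) and 0.12 (adjusted p = 0.272) in those 3 fits. Stx4, a syntaxin of the plasma membrane in many cell types, had -0.65, -1.65 (adjusted p = 2.28e-05) and 0.06 (adjusted p = 0.808). Syp had -0.52, -0.51 (adjusted p = 0.274) and 0.31 (adjusted p = 0.101). With the Gapdh difference alone over all 39 arrays, the Syp slope was -0.23 (adjusted p = 0.368). Among these fits its sign turned only where the beta-actin difference and the 3 arrays were both left out. With both differences in the fit and injected subject 35 alone left out, the 2 Vamp2 slopes were -2.04 (adjusted p = 3.66e-12) and -1.002 (adjusted p = 1.12e-05), and that of Syp was -1.26. Over 39 arrays Vamp2, Syp and Stx4 also had the largest positive beta-actin slopes, 0.64 for 1 Vamp2 probe set, 0.61 for Syp and 0.47 for Stx4.

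**Figure D4:**
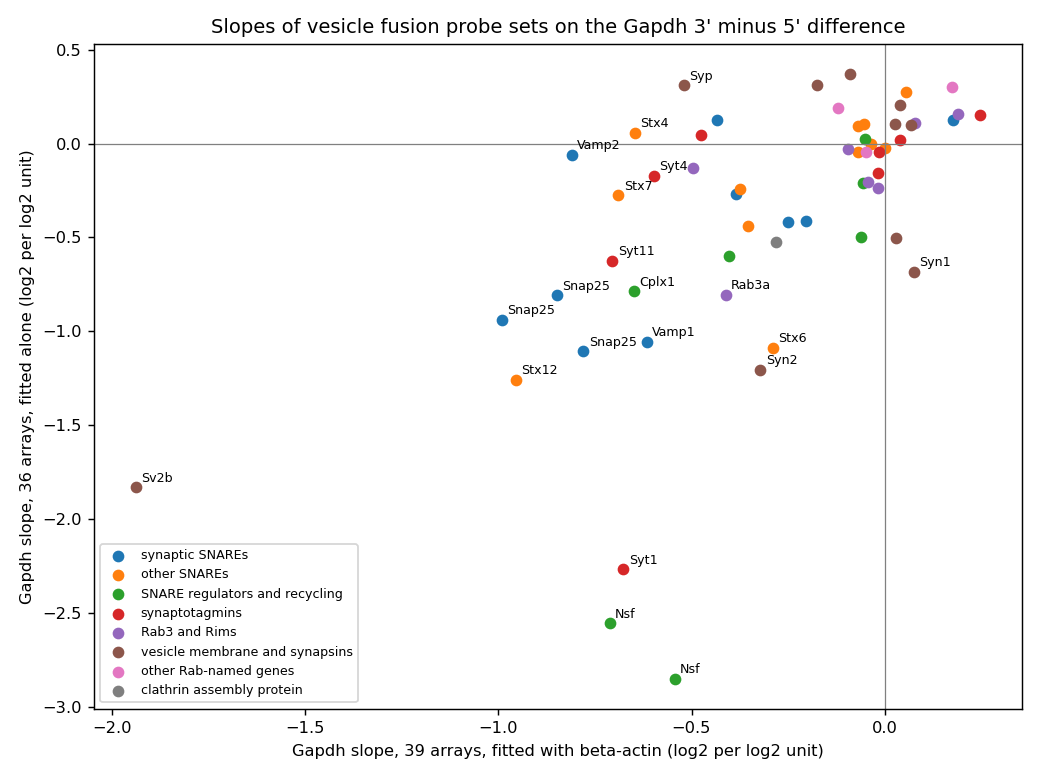
Each point is 1 of the 58 tested probe sets, placed by its slope on the Gapdh 3' minus 5' difference in the fit with both control differences over 39 arrays (horizontal axis) and in the fit with the Gapdh difference alone over the 36 arrays without the 3 that stood apart (vertical axis), coloured by role. Nsf and Syt1 are lowest on the vertical axis, at -2.85 to -2.27; Vamp2, Syp and Stx4 lie left of 0 but near or above 0 on the vertical axis.

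Probe sets of the same gene did not follow the control signal alike, and probe sets of 1 gene can lie at different places in its transcript. The positions of the probe sets were not analysed here. Of the 2 Sv2b probe sets, 1 had a Gapdh slope of -1.94 (SE 0.27, adjusted p = 1.38e-06) over 39 arrays and -1.83 (SE 0.18) alone in the 36, and the other (rc_AI639484_at) had 0.04 and 0.21, with adjusted p = 0.752 and 0.116. The first slope depended on the fit: it was -3.78 (adjusted p = 2.25e-08) without injected subject 35 and -0.52 (adjusted p = 0.359) in the 36 with both differences. The 2 read the groups with different spread. The first had 8.55 ± 1.18 in LowCORT-injected, 9.55 ± 0.46 in IntermediateCORT, 8.98 ± 0.64 in LowCORT and 9.19 ± 0.99 in Sham animals. The second had 11.59 ± 0.21 in LowCORT-injected, 11.78 ± 0.12 in IntermediateCORT, 11.66 ± 0.12 in LowCORT and 11.70 ± 0.18 in Sham animals (SD).

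Other genes with probe sets that parted in the 36 arrays were Syn2, with Gapdh slopes of -1.20 (adjusted p = 2.43e-05), -0.50 (adjusted p = 2.83e-04) and 0.37 (adjusted p = 0.235), Stx12, with -1.26 and -0.0032 (adjusted p = 0.973), and Stx5, with -0.44 and 0.28, both called. Stx1a had -0.42 (adjusted p = 0.0182) and 0.13 (adjusted p = 0.419). For Nsf, Vamp1 and Napa the probe sets had the same sign. Differences between slopes of 1 gene were not tested.

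**Figure D5:**
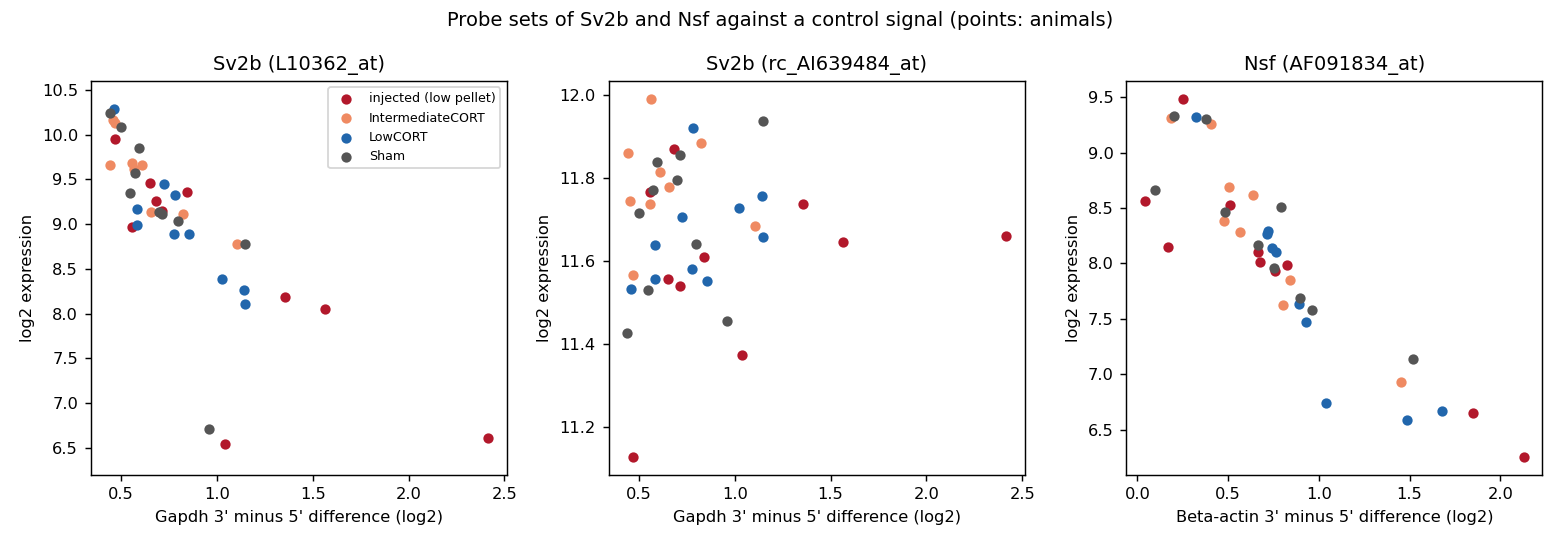
Log2 expression (vertical axes) of the 2 Sv2b probe sets against the Gapdh 3' minus 5' difference and of 1 Nsf probe set against the beta-actin difference (horizontal axes, log2), 1 point per animal, coloured by group. The first Sv2b probe set runs down to 6.54 and the second stays between 11.13 and 11.99; Nsf runs from 9.49 down to 6.25, with all 4 groups along the same band.

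A few animals were often the highest or lowest of their group. Injected subject 30, whose Gapdh difference of 0.47 was the lowest of its group, was the highest injected animal in 28 of 58 members (48.3%), against 15.2% of all tested probe sets. LowCORT subject 21, with the lowest LowCORT value, 0.46, was the highest LowCORT animal in 20 members (34.5%), against 15.5% of all. LowCORT subject 20, with 1.14 beside a highest LowCORT value of 1.15, was the lowest in 21 members (36.2%), against 25.9% of all. LowCORT subject 28, which had that value of 1.15, was the lowest in only 7 members (12.1%), against 7.39% of all.

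Other genes of vesicle release and recycling were read from a second list of 73 genes, 52 of them on the array and 46 tested. Of these, 0 were called in 5 of the 6 comparisons by limma, where 2 to 5 had an unadjusted p under 0.05. Of all tested probe sets, 0.0163% to 2.14% were called in those 5 comparisons, and 4.22% to 13.6% had an unadjusted p under 0.05. In LowCORT-injected against IntermediateCORT, 1 of 46 fell, Camk2a, the calcium/calmodulin kinase abundant at excitatory synapses, by 0.57 (SE 0.12, adjusted p = 0.0251). Of all tested probe sets, 0.196% were called there. With the control differences in the fit that Camk2a difference was -0.40 (adjusted p = 0.0551), and Camk2a rose in IntermediateCORT against Sham by 0.47 (adjusted p = 0.00978). The list had 10 positive and 8 negative called slopes on the Gapdh difference over 39 arrays (39.1%), against 24.7% of all tested probe sets. On the beta-actin difference the list had 6 positive and 21 negative (58.7%), against 35.9% of all. The members' share was 44.8% on each difference. The list's medians were 0.00 in LowCORT-injected against LowCORT and -0.05 in LowCORT against Sham.

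Neuron content was read from 10 general neuronal markers, whose mean ran from 10.30 to 10.55 in LowCORT-injected, 10.42 to 10.63 in IntermediateCORT, 10.34 to 10.59 in LowCORT and 10.43 to 10.58 in Sham animals. In the comparisons of group means, Camk2a was called and the other 9 were not. Of 6 listed CA1 pyramidal markers 3 were on the array, and the 2 tested ones, Pou3f1 and Man1a1, were not called in any comparison. The tissue label could therefore be checked by few genes.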

How the data were processed

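The authors hybridised CA1 RNA of 39 rats, each to its own array, and deposited log2 expression values per probe set; per the submitters' processing notes MAS5, RMA and R 2.7.1 were used, without saying which made the deposited values. The log base is not stated in the sources used here; the highest value, 14.37, is above the natural log of a 16-bit scan (11.09). Groups came from the labels. Gene symbols came from the platform annotation; all 74 members kept their symbol in the GRCr8 table. The members and gene lists were chosen with earlier results of these data known. Probe sets below the 30th percentile of mean signal and 59 array controls were left out.

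Group means were compared with limma 3.58.1 in R 4.3.3 (empirical Bayes, 4 groups in 1 fit, 35 residual degrees of freedom, 33 with both control differences), with Benjamini-Hochberg adjustment over 6118 probe sets. P-values rest on animals as replicates. On simulated data for LowCORT against Sham, 87 of 100 changes of 0.5 and 50 of 100 of 0.25 were recovered, and 177 of 200 Gapdh slopes of 0.5. The simulated noise was independent between probe sets, and the changed ones were drawn from all 6118. Recovery for members with a wide spread, such as Nsf and Syt1, was not simulated apart. Named members were those called, the 3 smallest p-values of each comparison, the core release genes, the extreme slopes, genes whose probe sets differ and up to 4 genes of the second list per comparison. Alternatives were the filter, quantile normalization, array weights, the position in the group, the control differences, only 2 groups in the fit and leaving out arrays. No batch is given in the labels, so none could be fitted, and the number of arrays limits the precision. Slopes on the control differences cannot be fully told apart from the position in the group by subject number.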

Additional observations from a re-analysis of the deposited data

Results flagged for a closer look

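In 136 checks of 34 named probe sets for a single animal far from the rest of its group, 12 values stood out; chance flags about 1 in 20 groups. Sham subject 6, 1 of the 3 arrays that stood apart by their control signals, was the lowest Sham animal in 6 of them: Sv2b at 6.71 (next Sham animal 8.78), Vamp2 at 10.49 (next 11.19) and 9.44 (next 10.57) in its 2 probe sets, Syp at 10.26 (next 10.93), Sv2a at 8.85 (next 9.37) and Stx8 at 7.29 (next 7.89). LowCORT subject 21, with the lowest Gapdh difference of its group, was the highest LowCORT animal for Nsf at 8.59 (next 7.28) and Syt1 at 9.27 (next 7.88). LowCORT subject 20 was the lowest for 1 Vamp2 probe set at 10.06 (next 10.55). LowCORT subject 29 was the lowest for 1 Napa probe set at 11.28 (next 11.54). Injected subject 30, with the lowest Gapdh difference of its group, was the highest for 1 Syn2 probe set at 8.86 (next 8.06). Injected subject 34, also 1 of the 3 arrays, was the highest for 1 Rab3b probe set at 10.21 (next 9.76). The part of the control signals in these values was not tested.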

How the results depend on the processing

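In LowCORT against Sham the number of called members, 1 as reported, was 2 with array weights, without the 3 arrays with the largest Gapdh difference, without the 3 arrays that stood apart, with both control differences and with the Gapdh difference alone, each time by the addition of Cplx1. It was 1 with only the 2 groups in the fit, but there Cplx1 (adjusted p = 0.0231) was called and Vamp3 was not. In LowCORT-injected against IntermediateCORT it was 1 (Napa) with the position in the group as a covariate and with array weights, against 0 as reported. The F test called 2 members, Vamp3 with Napa, under the position and array weights, and 2, Vamp3 with Cplx1, without the 3 arrays with the largest Gapdh difference, with both differences and with Gapdh alone. On the Gapdh difference 14 members were called with array weights and 14 without the 3 arrays that stood apart, against 26 as reported. That is 24.1% of members both times, where 21.4% and 33.1% of all probe sets were called. On the beta-actin difference, with the position as a covariate, 8 negative and 15 positive members were called, against 14 and 12 as reported, with 21.2% of all probe sets against 35.9%.

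Leaving out 1 array at a time gave 0 to 1 called members in IntermediateCORT against LowCORT, 0 to 2 in LowCORT against Sham, 0 to 1 in LowCORT-injected against IntermediateCORT, 0 to 2 in the F test and 0 in the other 3 comparisons. It gave 25 to 30 on the Gapdh difference and 23 to 35 on the beta-actin difference. The members called were not the same throughout. Without injected subject 35, 18 of the 26 Gapdh calls remained, 8 were lost and 12 were gained. Of the 30 then called (51.7%), 24 were negative and 6 positive, against 37.5% of all probe sets. Slopes that changed sign were, on the Gapdh difference, 1 Snap25 probe set with array weights (0.086) and, without the 3 arrays that stood apart and with both differences fitted, the 4 Snap25 probe sets (0.97, 1.26, 1.27 and 0.53), 1 of Stx5 (0.32) and 1 of Napa (0.16). On the beta-actin difference they were Stx7 (-0.072), 1 of Stx5 (-0.093) and 1 of Syt4 (-0.021). The 2 differences run together in those 36 arrays (r = 0.93), so a fit of both separates them poorly. No paired analysis was possible because the groups share no replicate numbers.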
